A study of Mus musculus with 27 samples.

Results

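Transcripts of 10 genes of lytic, inflammatory cell death were followed in mouse kidneys after warm ischemia of graded length. The genes were Ripk1, Ripk3 and Mlkl of the necroptosis pathway, Nlrp3, Pycard, Casp1, Casp4 and Gsdmd of the pyroptosis pathway, and Il18 and Il1b, which encode the cytokines matured by inflammasomes. They were picked by gene symbol, and all 10 were found among the 19392 genes measured. All 10 also passed the filter on low values (above 0 FPKM in at least 3 kidneys), which kept 18188 genes for testing, and none was at 0 in any kidney.

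RNA-Seq was performed on the left kidneys of 27 wild-type C57BL/6 mice whose age and sex were not given in the sources used here. The protocol in the labels describes removal of the right kidney and gives the sham mice no exception other than the clamp time. The left renal pedicle was clamped for 0 min (the sham group), 16, 18, 20, 22, 24, 26, 28 or 30 min, and the kidney was taken after 24 h of reperfusion, with 3 mice in each of the 9 groups. A single reperfusion time was sampled. The question behind the design was how kidney injury depends on the length of warm ischemia.

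Necroptosis and pyroptosis are forms of programmed death in which the plasma membrane is breached and cell contents leak out. In necroptosis, the kinase RIPK1, or a sensor such as ZBP1, engages the kinase RIPK3, which phosphorylates the pseudokinase MLKL, and MLKL then permeabilizes the membrane. Caspase-8 restrains this route. In pyroptosis, a sensor such as NLRP3 assembles with the adaptor ASC, encoded by Pycard, to activate caspase-1, or caspase-4 (often called caspase-11 in mice) binds bacterial lipopolysaccharide in the cytosol. Both caspases cleave gasdermin D, the pore former, and caspase-1 also matures interleukin-1 beta and interleukin-18. In the kidney, tubular epithelium and infiltrating leukocytes can both express parts of these pathways, and much of their control acts on the proteins, which were not measured here.

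The unit was FPKM, a read density corrected for transcript length and library size. The read depth of each kidney is unknown, because FPKM keep no counts. The summed FPKM of a kidney lay between 512453 and 554036. Tests were made with limma on quantile normalized log2(FPKM + 1), a scale that understates the change of genes near or under 1 FPKM. A gene is said to have passed where its Benjamini-Hochberg adjusted p-value over all 18188 genes was under 0.05, and it is called a DEG where the absolute log2 fold change was also above 1. The replicates were separate mice, and the p-values rest on the spread within groups of 3. All 8 comparisons with 0 min share the same sham kidneys, so they do not repeat each other independently.

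Some kidneys stood apart from the others of their group. The summed FPKM of 13 interferon-stimulated genes was 117 in sham replicate 1, 1585 in replicate 2 and 1245 in replicate 3, against 54.8 to 150 in the 24 ischemic kidneys. The tubular injury genes Havcr1, Lcn2 and Krt20 summed to 14.5, 12.2 and 86.8 FPKM in the sham kidneys. In the 16 min group they summed to 725, 1000 and 68.5 FPKM, so that 16 min replicate 3 lay within the range of the sham kidneys. In 30 min replicate 3, 6 genes of loop, distal tubule and collecting duct summed to 2895 FPKM, against 818 and 849 in replicates 1 and 2. The macrophage and monocyte genes summed to 170 FPKM in that kidney, against 105 and 96.0. The part of this difference in the 30 min results was not tested. Leaving out sham replicate 1 or 16 min replicate 3 changed some calls and moved some values markedly. In most such cases the value without that kidney is given. The defining genes of proximal tubule were abundant in every kidney, with a summed FPKM of 2658 to 2960 at 0 min and of 616 to 718 at 30 min.

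Over the 9 ischemia times, 6 of the 10 genes differed by limma's F test: Ripk1, Ripk3, Mlkl, Pycard, Il18 and Il1b. The background share was 55.1% of all tested genes, so the count was near that of genes at large. Nlrp3, Casp1, Casp4 and Gsdmd did not pass. In FPKM, which allow levels of different genes to be compared, Ripk1 was the most abundant member at 0 min with a mean of 10.3, followed by Pycard at 4.79, while Nlrp3 at 0.127, Ripk3 at 0.413 and Casp1 at 0.57 were the lowest. Ripk3 had the widest spread of group means, with a highest mean 10.7 times the lowest. The same ratio was 3.5 for Mlkl, 2.62 for Il1b, 2.05 for Nlrp3, 1.92 for Pycard and 1.83 for Il18, and it was 1.64 or less for Casp1, Casp4, Gsdmd and Ripk1.

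The number of the 10 genes that passed against 0 min, with the share of all tested genes in parentheses, was 3 for 16 min (19%), 3 for 18 min (27.8%), 4 for 20 min (22.8%), 4 for 22 min (28.8%), 4 for 24 min (28.3%), 3 for 26 min (30.1%), 4 for 28 min (48.2%) and 4 for 30 min (52.3%). The count of members stayed at 3 or 4 while the background share rose from 19% to 52.3%. On the log2(FPKM + 1) scale few changes exceeded 2-fold, although the mean FPKM of Ripk3 was 3.94 to 10.7 times that of sham. The members held no DEG at 16, 18, 20, 22 or 26 min, where the DEGs were 2.25%, 3.06%, 2.51%, 3.29% and 3.77% of all tested genes. They held 1 DEG, Ripk3, in the 24 min group (3.12%) and in the 28 min group (8.48%), and 2 DEGs, Ripk3 and Mlkl, in the 30 min group (10.7%). The kidneys of Ripk3, Mlkl, Pycard and Il1b lay wholly above the sham kidneys in the 28 min group (35.5% of all tested genes) and in the 30 min group (33.3%). The median log2 fold change of the 10 genes was -0.11 at 16 min, 0.06 at 28 min and 0.10 at 30 min, beside medians of all tested genes of 0.00 at each of these times. The members did not move as a block.

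**Figure D1:**
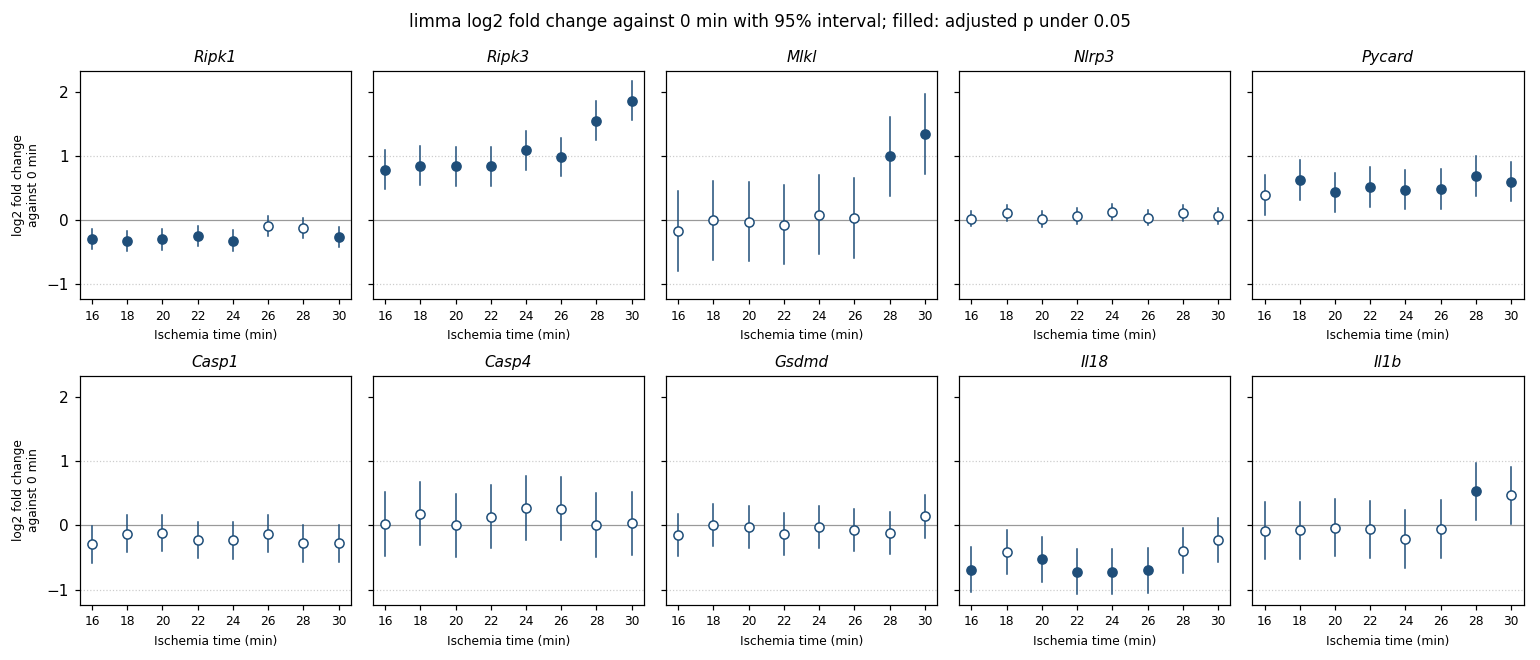
Each panel plots 1 of the 10 genes, with the log2 fold change against 0 min on the y axis and the ischemia time in minutes on the x axis. Points are limma estimates, bars their 95% intervals, filled points have an adjusted p-value under 0.05, and dotted lines mark a log2 change of 1 in each direction. Ripk3 is filled and positive at all 8 times and reaches 1.86 at 30 min, Mlkl lies near 0 until 26 min and is filled at 28 and 30 min, and Casp1, Casp4, Gsdmd and Nlrp3 are open throughout.

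Ripk3, which encodes the kinase that hands the death signal to MLKL, lies on chromosome 14 of GRCm38 at positions 55784995 to 55788865, minus strand, and Mlkl on chromosome 8 at 111311797 to 111338177, also on the minus strand. These were the DEGs among the members, so the 250 bases before the RefSeq start of each gene are shown (RefSeq, GRCm38.p6). The Ripk3 region is chr14:55788858-55789107 and the Mlkl region chr8:111338206-111338455, both written 5′ to 3′ on the minus strand. Capitals mark the matches to the hypoxia response core, ACGTG or GCGTG on either strand, the bases at the centre of sites that hypoxia-inducible factors can bind.
Ripk3: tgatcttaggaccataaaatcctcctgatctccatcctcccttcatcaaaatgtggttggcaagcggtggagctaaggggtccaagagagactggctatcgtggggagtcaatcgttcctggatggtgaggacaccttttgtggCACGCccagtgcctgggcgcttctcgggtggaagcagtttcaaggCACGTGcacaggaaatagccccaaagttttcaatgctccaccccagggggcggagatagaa
Mlkl: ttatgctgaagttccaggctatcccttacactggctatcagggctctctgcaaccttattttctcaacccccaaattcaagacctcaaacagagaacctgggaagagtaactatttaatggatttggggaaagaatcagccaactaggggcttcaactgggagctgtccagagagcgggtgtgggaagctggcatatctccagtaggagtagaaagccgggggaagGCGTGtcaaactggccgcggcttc
The Ripk3 region held 3 matches, of which those starting 61 and 60 bases before the start share letters of a single CACGTG. The Mlkl region held 1 match, starting 24 bases before the start. The core is short and common, and 38.6% of the 32851 promoter regions of this length held it. No member promoter held the interferon-stimulated response element (GAAA, any 2 bases, GAAA; both strands; in 2.98% of promoters), the kappa B site (GGGA, any base, TTTCC; 0.356%) or the AP-1 site TGANTCA (6.75%). The gamma-activated site TTCNNNGAA (7.02%) was present in 1 member promoter region, of Ripk1. The hypoxia response core was found in 6 promoter entries of 5 members, Ripk3, Mlkl, Ripk1, Casp1 and Nlrp3, and thus also in genes that were no DEGs. A promoter entry was found for 9 of the 10 genes, with none for Gsdmd. These matches describe letters in a window and not binding.

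Ripk3 showed the steepest course of the members. Its level was 0.41, 0.23 and 0.60 FPKM in the sham kidneys. It rose to 1.92, 2.11 and 0.85 FPKM in the 16 min kidneys and was 1.79, 1.93 and 2.10 FPKM in the 26 min kidneys. Every ischemic kidney thus lay above every sham kidney. In the 18 kidneys of 16 to 26 min the level ranged from 0.85 to 2.61 FPKM around a median of 1.82. In the 28 min group it was 3.60, 3.22 and 3.17 FPKM, and in the 30 min group 4.44, 4.10 and 4.70 FPKM, so that all 6 of these kidneys lay above all 18 of the shorter times.

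Against 0 min, the mean FPKM of Ripk3 was 3.94 times as high at 16 min, 4.69 times at 26 min, 8.06 times at 28 min and 10.7 times at 30 min. The log2 fold change of log2(FPKM + 1) was 0.78 at 16 min (SE 0.144, limma adjusted p = 0.001), between 0.84 and 1.09 from 18 to 26 min, 1.55 at 28 min (adjusted p = 6.14e-08) and 1.86 at 30 min (adjusted p = 2.56e-09). Without 16 min replicate 3, the 16 min value was 0.99 (adjusted p = 1.75e-05). At 24 min the log2 fold change of 1.09 was just past the DEG limit and fell under it without sham replicate 2 or without 24 min replicate 3. At 26 min the value of 0.98 was just under the limit and moved past it without sham replicate 3 or 26 min replicate 1. When the 9 group means were ordered, those of 0, 28 and 30 min were set off from the group ranked next to them with no overlap of their kidneys, while the 6 groups from 16 to 26 min overlapped with their neighbors.

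Mlkl, the gene of the membrane-breaching effector, did not share the early increase. Its level was 0.79, 3.53 and 4.12 FPKM in the sham kidneys and 1.39 to 3.74 FPKM in the 18 kidneys of 16 to 26 min. In the 28 min group it was 6.15, 5.92 and 7.55 FPKM, and in the 30 min group 8.25, 10.75 and 6.93 FPKM. All 6 kidneys with the longest ischemia lay above all 21 others, and those others overlapped throughout. The mean was 2.81 ± 1.78 FPKM at 0 min and 8.64 ± 1.94 FPKM at 30 min (SD, n = 3 each), a ratio of 3.07.

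The log2 fold change of Mlkl against 0 min lay between -0.17 and 0.09 from 16 to 26 min, with 95% intervals that reach 0.70 at the highest, and was 0.99 at 28 min (SE 0.295, limma adjusted p = 0.00847) and 1.34 at 30 min (adjusted p = 6.85e-04). These values depend on sham replicate 1, which had the lowest Mlkl level of the 27 kidneys and the lower interferon-stimulated gene sum of its group. Without it, Mlkl was 0.51 above sham at 28 min (adjusted p = 0.0808) and 0.86 above sham at 30 min (adjusted p = 0.00437), and it was then no DEG at 30 min. The other sham kidneys, at 3.53 and 4.12 FPKM, lay above the median of 2.685 FPKM of the 16 to 26 min kidneys. The values near 0 at 16 to 26 min thus also depend on sham replicate 1. A comparison without sham kidneys, 30 min against 26 min, was therefore added after the data had been seen. There Mlkl rose by 1.31 (SE 0.295, adjusted p = 0.00154) and Ripk3 by 0.88 (SE 0.144, adjusted p = 7.81e-05). In that comparison 3 of the 10 genes passed (37.3% of all tested genes), and 1, Mlkl, was a DEG (5.19%).

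Ripk1, the kinase upstream of RIPK3 (chromosome 13, 34002363 to 34037147, plus strand), stayed within a narrow band. Its level was 9.50, 10.12 and 11.25 FPKM in the sham kidneys, and the 27 kidneys ranged from 7.69 to 11.25 FPKM. Its log2 fold change was between -0.33 and -0.25 at 16 to 24 min and at 30 min, where it passed (adjusted p from 0.0033 to 0.017), and was -0.09 at 26 min and -0.12 at 28 min, where it did not. The decrease was small, and without quantile normalization it no longer passed at 16, 20, 22, 24 or 30 min (adjusted p from 0.0617 to 0.176). At 18 min it passed with quantile normalization, without it and with FPKM rescaled to a constant sum. Ripk1 overlaps Serpinb6a on the opposite strand and 2 processed pseudogenes, and whether the counting used strand is not given in the sources used here.

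**Figure D2:**
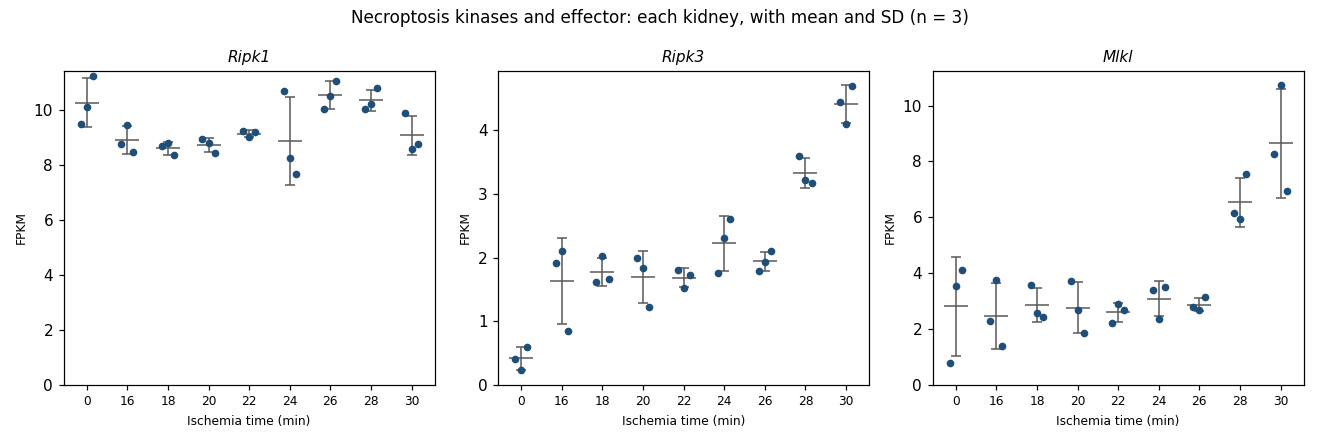
The panels plot Ripk1, Ripk3 and Mlkl, with FPKM from 0 on the y axis and ischemia time in minutes on the x axis, where groups are evenly spaced and the gap from 0 to 16 min is not to scale. Each point is 1 kidney, and the horizontal and vertical bars are the mean and SD of 3 kidneys. Ripk3 steps up from at most 0.60 FPKM at 0 min, stays at 0.85 to 2.61 FPKM until 26 min and steps up again, Mlkl rises at 28 and 30 min alone, and Ripk1 stays between 7.69 and 11.25 FPKM.

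Among the pyroptosis genes, the adaptor was the member that rose. Pycard (chromosome 7, 127989708 to 127993867, minus strand) was at 3.40, 5.08 and 5.88 FPKM in the sham kidneys. It was at 10.04, 9.94 and 7.62 FPKM at 28 min and at 8.48, 7.64 and 9.01 FPKM at 30 min. Its kidneys lay wholly above the sham kidneys at every time other than 16 min, where replicate 3 with 5.32 FPKM fell between them. Pycard passed against 0 min from 18 to 30 min with log2 fold changes of 0.43 to 0.69 and was no DEG. At 16 min it was 0.39 higher and did not pass (limma adjusted p = 0.07), without 16 min replicate 3 it was 0.56 higher and passed (adjusted p = 0.00801), and without sham replicate 1 it was 0.21 higher and did not (adjusted p = 0.367).

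Sham replicate 1 again had the lowest Pycard level. Without it, the increase was 0.44 at 18 min (adjusted p = 0.0306), 0.51 at 28 min (adjusted p = 0.00654) and 0.42 at 30 min (adjusted p = 0.0195), whereas the values at 20, 22, 24 and 26 min fell to 0.25 to 0.34 and did not pass (adjusted p from 0.0909 to 0.245). The summed FPKM of 10 macrophage and monocyte genes was 71.0 to 82.0 at 0 min, 75.8 to 156 at 16 to 26 min and 96.0 to 170 at 30 min. At 30 min 4 of these 10 genes passed with an increase (26.9% of all tested genes did) and 2 with a decrease (25.4%). The part of these cells in the Pycard values was not tested. In bulk kidney RNA, a change in the number of cells of a type and a change of RNA per cell cannot be told apart.

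The sensor and the executioners of pyroptosis showed no change that passed at any of the 8 ischemia times. Nlrp3 (chromosome 11, 59541568 to 59566956) was low in all kidneys, at 0.08 to 0.29 FPKM. Gsdmd (chromosome 15, 75862327 to 75867408) ranged from 1.56 to 4.08 FPKM, and its sham kidneys at 1.56, 2.61 and 2.62 FPKM overlapped with those of 30 min at 2.27, 2.43 and 4.08 FPKM. Casp4 and Casp1, which lie beside each other on chromosome 9 (5308828 to 5336783 and 5298517 to 5307265), ranged from 0.85 to 2.70 FPKM and from 0.19 to 0.86 FPKM.

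The 95% intervals bound what could have been missed. At 30 min the log2 fold change was 0.14 for Gsdmd (interval -0.19 to 0.47), 0.03 for Casp4 (-0.46 to 0.52), -0.28 for Casp1 (-0.56 to 0.0075) and 0.07 for Nlrp3 (-0.053 to 0.19). A 2-fold change of log2(FPKM + 1) lies outside all of these intervals. For Nlrp3 and Casp1, whose levels were under 1 FPKM, the pseudocount compresses the scale, and the interval says little about the ratio of their FPKM. Casp1 passed at 30 min when sham replicate 1 (-0.41, adjusted p = 0.0209) or 30 min replicate 3 (-0.42, adjusted p = 0.0158) was left out.

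Against 0 min, the cytokine gene Il18 passed with a decrease at 16 min and from 20 to 26 min, and Il1b passed with an increase at 28 min alone. Il18 (chromosome 9, 50554827 to 50581840) was at 2.74, 2.77 and 2.50 FPKM in the sham kidneys and fell to 1.41, 1.61 and 1.49 FPKM at 16 min. At 26 min it was at 1.59, 1.20 and 1.73 FPKM. At 30 min it was at 1.63, 3.14 and 2.60 FPKM, which overlaps the sham kidneys. Its log2 fold change was -0.69 at 16 min (SE 0.167, limma adjusted p = 0.00705), -0.72 at 22 and 24 min and -0.70 at 26 min, all of which passed. It was -0.52 at 20 min, where it passed in the fit of all kidneys and in 2 of the 6 fits that left a kidney out. Without sham replicate 1 the 20 min value was still -0.52 but did not pass (adjusted p = 0.0675). At 18, 28 and 30 min Il18 did not pass (-0.41, -0.39 and -0.23).

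From 26 to 30 min Il18 rose by 0.47 (adjusted p = 0.0324), a value that no longer passed without 26 min replicate 1 or 2 or without 30 min replicate 2 or 3 (adjusted p from 0.0581 to 0.192). Il1b was 0.52 higher in that comparison and did not pass (limma adjusted p = 0.0623). Il18 overlaps Bco2 and Tex12 on the opposite strand. The fall of Il18 at 16 min was as large without 16 min replicate 3, at -0.71.

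Il1b (chromosome 2, 129364570 to 129371139, minus strand) was at 0.87, 0.52 and 0.88 FPKM in the sham kidneys and at 0.32 to 1.71 FPKM from 16 to 26 min. It was at 1.35, 1.41 and 2.42 FPKM at 28 min and at 2.10, 0.92 and 1.90 FPKM at 30 min, so that the kidneys of both groups lay above the sham kidneys and overlapped those of shorter ischemia. The log2 fold change was 0.53 at 28 min (SE 0.214, limma adjusted p = 0.047) and 0.47 at 30 min (adjusted p = 0.0742). The value at 28 min did not pass without any 1 of the 3 sham kidneys or without 28 min replicate 3 (adjusted p from 0.062 to 0.234).

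The summed FPKM of 8 neutrophil genes was also higher at 28 and 30 min. It was 5.49 to 11.9 at 0 min, 4.15 to 12.2 at 16 to 26 min, 15.3 to 19.2 at 28 min and 22.7 to 30.5 at 30 min. Within groups, the order of the kidneys by neutrophil sum and by Il1b level was the same at 16 and 24 min and differed at the other times. At 16 min replicate 2 had the highest sum (12.2) and the highest Il1b level (1.71 FPKM). At 30 min replicate 2 had the highest sum (30.5) and the lowest Il1b level (0.92 FPKM). At 28 min replicate 3 had the lowest sum (15.3) and the highest Il1b level (2.42 FPKM). Of the 7 of these genes that were tested, 4 passed with an increase at 30 min (26.9% of all tested genes did) and 2 were DEGs with an increase (5.14%). At 28 min 2 passed with an increase (24.5%) and 1 with a decrease (23.6%), and 0 were DEGs (8.48%). The granule genes Mpo and Elane were at 0 in 24 and 26 of the 27 kidneys. The part of neutrophils in the Il1b values was not tested.

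**Figure D3:**
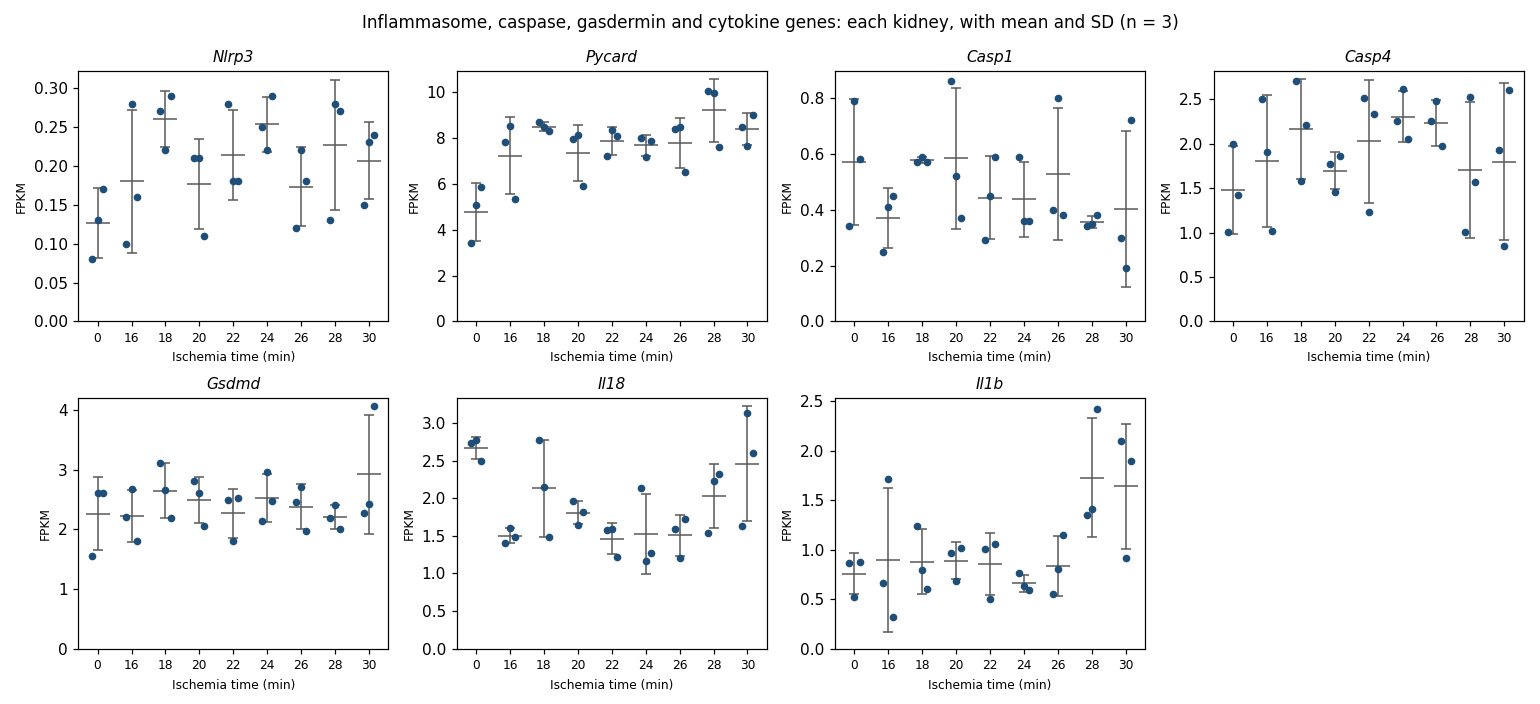
The panels plot Nlrp3, Pycard, Casp1, Casp4, Gsdmd, Il18 and Il1b in the same way, with FPKM from 0 on each y axis, ischemia time in minutes on the same evenly spaced x axis, 1 point per kidney and the mean and SD of 3 kidneys. Pycard lies higher in the ischemic kidneys, Il18 dips from 2.50 to 2.77 FPKM at 0 min to at most 1.73 FPKM at 26 min, Il1b is highest at 28 and 30 min, Casp1 and Gsdmd overlap the sham kidneys at all times, Casp4 at all times other than 24 min, and Nlrp3 at all times other than 18, 22 and 24 min.

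**Figure D4:**
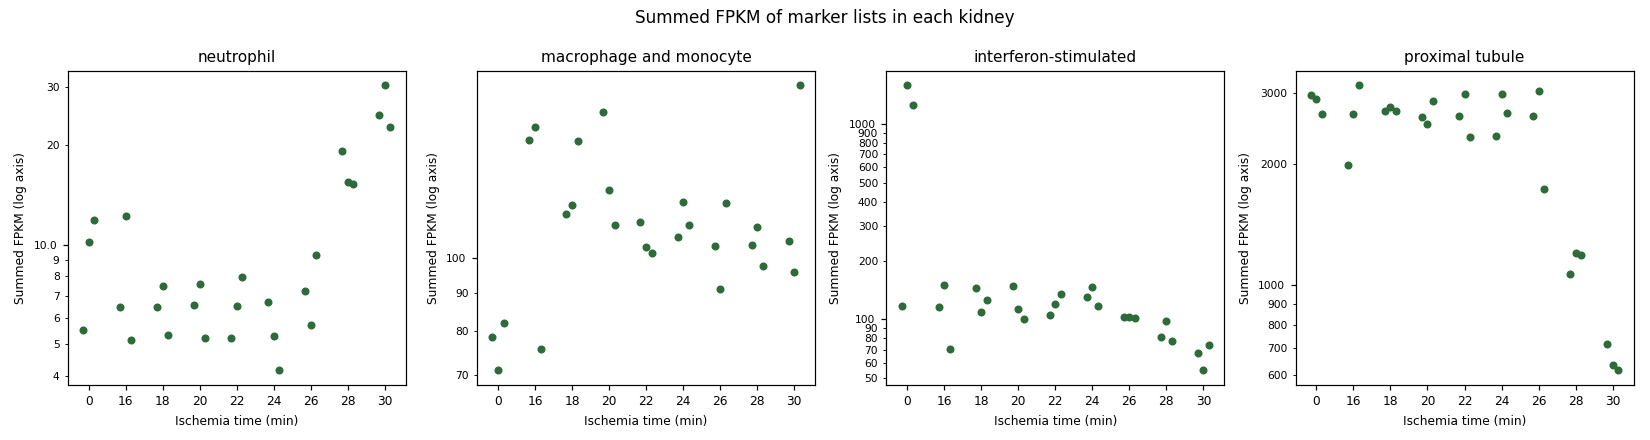
Each panel plots the summed FPKM of a marker list on a log y axis against ischemia time in minutes (groups evenly spaced, 0 to 16 min not to scale), with 1 point per kidney. The neutrophil sum rises to 15.3 to 30.5 at 28 and 30 min, the proximal tubule sum falls to 616 to 718 at 30 min, and 2 of the 3 sham kidneys have an interferon-stimulated sum of 1245 or more while all other kidneys are at or under 150.

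Within the shorter ischemia times, the F test over 16 to 26 min found no difference for any of the 10 genes, with 0 at an unadjusted p under 0.05 in limma and the lowest unadjusted p of 0.0512 for Ripk1. No gene of the 18188 passed that test. In 26 min against 16 min, likewise, 0 of the 10 genes and 0% of all tested genes passed, and Ripk1 alone had an unadjusted p under 0.05. Missing this threshold with 3 kidneys a group does not show that the levels were equal. For Ripk3 the difference was 0.20 with an interval of -0.10 to 0.50.

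From 26 to 28 min the members that passed were the necroptosis genes Ripk3 and Mlkl. In 28 min against 26 min, 2 of the 10 genes passed (19.3% of all tested genes) and none was a DEG (1.5%). Ripk3 rose by 0.56 (SE 0.144, limma adjusted p = 0.00956), from 1.94 ± 0.155 to 3.33 ± 0.235 FPKM (SD, n = 3 each). Mlkl rose by 0.96 (SE 0.295, adjusted p = 0.0275), from 2.87 ± 0.240 to 6.54 ± 0.882 FPKM, with no overlap between the groups. Ripk3 passed in each fit without 1 of the 6 kidneys, whereas Mlkl no longer passed without 26 min replicate 1 or 2 or 28 min replicate 1 or 3 (adjusted p from 0.0603 to 0.101). Il1b was 0.58 higher and did not pass (adjusted p = 0.0617), and the absolute difference of the other 7 genes was 0.31 or less.

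In 30 min against 28 min, 0 of the 10 genes passed (13.2% of all tested genes) and none was a DEG (1.05%), with Ripk3 alone at an unadjusted p under 0.05 in limma. Its difference was 0.31 with an interval of 0.014 to 0.62, and all 30 min kidneys lay above all 28 min kidneys. The interval for Mlkl, -0.27 to 0.96, leaves room for a further increase as large as that from 26 to 28 min.

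The other genes of the 2 pathways were read from 4 lists with 56 genes, of which 55 could be tested. At 30 min against 0 min, 21 passed with an increase (26.9% of all tested genes did) and 9 with a decrease (25.4%), and their median log2 fold change was 0.07 beside 0.00 for all genes. DEGs were 5 with an increase (5.14%) and 3 with a decrease (5.59%). At 16 min 2 passed with an increase (9.43%) and 9 with a decrease (9.61%), and at 28 min the counts were 15 (24.5%) and 11 (23.6%). The decreases at 16 min included Zbp1 and Il18bp, which among the sham kidneys were high in replicates 2 and 3 and much lower in replicate 1. The part of that difference among the sham kidneys in the count was not tested.

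Of the 15 genes upstream of the necroptosis kinases, 8 passed with an increase at 30 min (26.9% of all tested genes) and 3 with a decrease (25.4%). Birc3, which encodes a ubiquitin ligase that holds RIPK1 in its survival complex, rose by 1.10 (limma adjusted p = 3.59e-05), from 3.14, 4.09 and 3.72 FPKM at 0 min to 7.40, 11.11 and 11.42 FPKM at 30 min. Casp8, the protease that restrains necroptosis, rose by 0.62 (adjusted p = 3.13e-04), from 16.81, 16.61 and 15.98 FPKM to 27.27, 31.54 and 24.30 FPKM. Neither gene's groups overlapped.

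Zbp1, the nucleic acid sensor that can engage RIPK3, went the other way from Ripk3 and Mlkl. It was at 1.19, 11.51 and 12.30 FPKM in the sham kidneys and at 0.82, 0.83 and 0.88 FPKM at 30 min, a log2 fold change of -2.05 (limma adjusted p = 5.28e-04). Without sham replicate 1 the value was -2.90 (adjusted p = 2.02e-08), and without replicate 2 or 3 it was -1.64 or -1.61. In a fit of the 2 groups alone it did not pass (adjusted p = 0.0819). The same kidneys of the sham group were high in Zbp1 and in the interferon-stimulated genes, and the part of that state in the result was not tested.

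Of the 13 inflammasome sensors and adaptors, 4 passed with an increase at 30 min (26.9% of all tested genes) and 3 with a decrease (25.4%). Nlrp6, a sensor of the NLRP family, had the largest change of the pathway genes tested in this comparison. It was at 55.01, 52.68 and 50.14 FPKM at 0 min, at 25.27, 22.53 and 32.58 FPKM at 16 min, at 8.78, 8.48 and 7.79 FPKM at 28 min and at 6.14, 4.69 and 3.46 FPKM at 30 min. The log2 fold change was -1.03 at 16 min (limma adjusted p = 0.00135) and -3.32 at 30 min (adjusted p = 9.63e-11). Without 16 min replicate 3 the 16 min value was -1.19 (adjusted p = 3.53e-04). Without sham replicate 1 it was -0.99 (adjusted p = 0.00576), just under the DEG limit. Group means of Nlrp6 were 20.9 to 29.7 FPKM at 16 to 26 min against 52.6 FPKM at 0 min. At those times the summed proximal tubule genes, at 1734 to 3134 FPKM, overlapped the sham kidneys in every group. The median log2 fold change of these 6 genes lay between -0.33 at 16 min and -0.13 at 22 min. At each of those times 1 or 2 of the 6 passed, all with a decrease (19% to 30.1% of all tested genes passed in either direction). At 30 min 5 of 6 passed with a decrease (25.4% of all tested genes), and their median was -2.05. The part of proximal tubule in the Nlrp6 values was not tested.

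Txnip, whose protein binds thioredoxin and can engage NLRP3, rose by 1.22 at 30 min (limma adjusted p = 2.55e-05), from 74.40, 111.11 and 75.84 FPKM to 136.28, 189.33 and 264.94 FPKM. It passed in all 6 fits without 1 kidney, with values of 0.96 to 1.46, the lowest of which is under the DEG limit. Panx1, the gene of a membrane channel that releases ATP, rose by 1.41 (adjusted p = 8.65e-06), from 0.59, 0.69 and 0.54 FPKM to 4.69, 3.57 and 2.81 FPKM. It had passed at 16 min already (0.68, adjusted p = 0.0255), with 2.41, 2.64 and 0.77 FPKM in the kidneys of that group. The low value was again that of replicate 3, the kidney with few injury transcripts, and without it the value was 0.99 (adjusted p = 4.28e-04). The 16 min value did not pass without sham replicate 1 or 3 or without 16 min replicate 1 or 2 (adjusted p from 0.0636 to 0.152).

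Of 11 tested genes of the list of gasdermins and membrane rupture, 1 passed with an increase at 30 min (26.9% of all tested genes) and 1 with a decrease (25.4%). None was a DEG (10.7%). Gsdme, the gasdermin cleaved by caspase-3, was at 4.05, 4.38 and 3.68 FPKM at 0 min and at 4.56, 5.10 and 4.17 FPKM at 30 min, with a log2 fold change of 0.02 that did not pass and that turned to -0.040 without sham replicate 3 and to -0.064 without 30 min replicate 2. Ninj1, which carries out plasma membrane rupture downstream of the pores, was abundant at 115.92, 119.84 and 127.20 FPKM and fell by 0.29 at 30 min (limma adjusted p = 0.016) to 105.44, 90.54 and 90.97 FPKM. That decrease no longer passed without sham replicate 3 or 30 min replicate 2 (adjusted p = 0.0532 and 0.0847).

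Of 16 genes of interleukin-1 family signaling, 8 passed with an increase at 30 min (26.9% of all tested genes) and 2 with a decrease (25.4%). The 2 DEGs that rose encode inhibitors of interleukin-1. Il1rn, the receptor antagonist, was listed at 0.00, 0.08 and 0.51 FPKM at 0 min and at 3.23, 1.63 and 1.81 FPKM at 30 min, a difference of 1.40 in log2(FPKM + 1) (limma adjusted p = 0.0076). Il1r2, the decoy receptor, was listed at 0.00, 0.06 and 0.00 FPKM at 0 min and at 0.88, 1.99 and 3.62 FPKM at 30 min, a difference of 1.53 (adjusted p = 1.62e-06). Without 1 kidney, the Il1r2 difference ranged from 1.24 to 1.87 and passed in all 6 fits. Because sham kidneys were listed at 0, no fold is given for either gene.

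Il1r1, the signaling receptor, rose by 0.76 at 30 min (limma adjusted p = 1.96e-05), from 2.19, 2.02 and 2.36 FPKM to 4.27, 3.80 and 7.19 FPKM. The groups did not overlap, and in the 6 fits without 1 kidney the value ranged from 0.54 to 0.89 and passed. Il18bp, which encodes the soluble inhibitor of interleukin-18, fell by 2.27 (adjusted p = 2.72e-05), from 6.33, 40.08 and 30.39 FPKM to 3.67, 2.82 and 4.63 FPKM. As with Zbp1, sham replicate 1 was the low kidney of its group, and without it the log2 fold change was -3.02. At 16 min the value was -2.0 (adjusted p = 9.79e-04), -2.75 without sham replicate 1, and it did not pass in a fit of the 2 groups alone (adjusted p = 0.187).

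**Figure D5:**
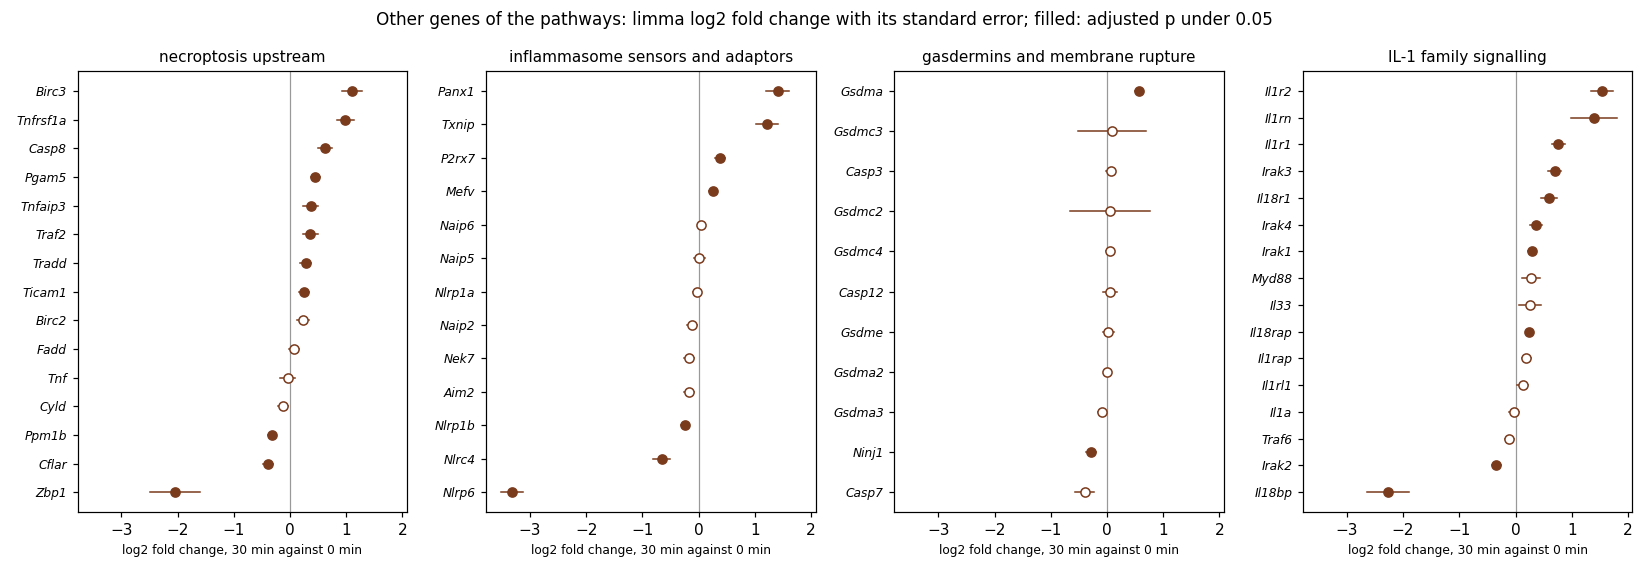
The panels plot the log2 fold change of 30 min against 0 min on the x axis for the 55 tested genes of the 4 pathway lists, 1 row per gene, with bars for the standard error. Filled points have an adjusted p-value under 0.05. Birc3, Panx1, Txnip, Il1r2 and Il1rn are at the top of their lists with values of 1.10 to 1.53, and Zbp1, Nlrp6 and Il18bp are at the bottom with values of -2.05 to -3.32.

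Patterns over the 27 kidneys were compared by Pearson correlation of normalized log2 values among 12346 genes, as a description with no test, since the kidneys share their ischemia groups. Ripk3 and Mlkl had a correlation of 0.71, Ripk3 and Pycard of 0.70, and Mlkl and Il1b of 0.65. Ripk3 and Casp1 had one of -0.44. The genes most like Ripk3 were Tpm4, Mgat4b and Slc12a4 (each 0.96), those most like Mlkl were Aida (0.94), Ric8a (0.91) and Mapkapk2 (0.90), and those most like Pycard were Cks1b (0.90), Rcn1 (0.87) and Spp1 (0.86). Il1b was most like Atp6v0b (0.86), Il18 most like Pttg1ip (0.81) and Ripk1 most like Abca1 (0.84). For Gsdmd, Casp1, Nlrp3 and Casp4 the highest correlation was 0.75 or less.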

How the data were processed

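RNA-Seq libraries of 27 left kidneys were sequenced on DNBSEQ-G400. The authors deposited FPKM for each gene symbol and call the unit RPKM. The submitters' processing notes name Bowtie2, RSEM, DESeq2 and GRCm38.p6 without roles. No counts were used, so the depth is unknown. Groups follow the labelled ischemia time. Values were taken as log2(FPKM + 1), quantile normalized over the 27 kidneys and fitted in limma 3.58.1 (R 4.3.3) with a mean for each of the 9 times. The 18188 genes that exceeded 0 FPKM in 3 or more kidneys were tested, and p-values were adjusted over them by Benjamini-Hochberg. The pipeline was tested on simulated data. Gene positions came from GRCm38 and promoter sequences from RefSeq. The alternatives were other pseudocounts, scalings, filters and fits, a replicate block and leaving out each kidney. Pathway genes were named where listed by name (7) or, from each list, as up to 3 DEGs with the largest change in each direction at 30 min. The 10 genes and the lists were chosen with earlier results of these data known. Figures were drawn with matplotlib 3.10.9.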

Additional observations from a re-analysis of the deposited data

Results flagged for a closer look

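Over the steps from 26 to 28 min and from 28 to 30 min, 9 differences passed limma's adjusted p of 0.05 among the 10 genes and the pathway genes named. From 26 to 28 min, Ripk3 differed by 0.56, Mlkl by 0.96 and Panx1 by 0.62 on the log2 scale, and Nlrp6 by -1.23. From 28 to 30 min, Txnip differed by 0.87, Il1r1 by 0.55 and Il1r2 by 1.0, and Nlrp6 by -0.71 and Ninj1 by -0.39. The Panx1 difference passed in 1 of the 6 fits that left out a kidney and the Nlrp6 difference from 28 to 30 min in 2 of 6. The Mlkl difference passed in 2 of 6 and the Txnip difference in 5 of 6. None of the 5 differences from 28 to 30 min passed in a fit of those 2 groups alone (adjusted p from 0.0857 to 0.191).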

How the results depend on the processing

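The number of DEGs among the 10 genes moved with the scale. With a pseudocount of 0.1 FPKM it was 1 at 16, 18 and 20 min, 2 at 22, 24 and 28 min, 1 at 26 min, and 2 for 30 against 26 min. With FPKM rescaled to a constant sum (TPM) it was 1 at 16, 18, 20, 22 and 26 min, 2 at 28 min, and 1 for 28 against 26 min. Without quantile normalization it was 1 at 26 min and 2 at 28 min. With a filter at 1 FPKM it was 0 at 24 min, and in a fit of only the 2 groups it was 1 at 30 min. Leaving out 1 kidney gave 0 to 1 at 24 and 26 min, 1 to 2 at 28 and 30 min, 0 to 1 for 28 against 26 min, and 4 to 6 genes with a difference over the 9 times, the lowest without sham replicate 1. Gsdme at 30 min ranged from -0.064 to 0.10 without 1 kidney and was negative, at -0.040 and -0.064, in 2 of the 6 fits. Of the alternatives to single-gene values, 813 kept direction and side of the threshold, 92 lost significance and 14 gained it. In fits of only the 2 groups compared, Ripk3 at 16 min (adjusted p = 0.141) and Mlkl at 28 min (0.119) and 30 min (0.0666) did not pass, nor did Zbp1 at 30 min (0.0819), nor Nlrp6 (0.0792) and Il18bp (0.187) at 16 min, nor Pycard from 18 to 26 min (0.0505 to 0.191). Among all genes, a pseudocount of 0.1 FPKM raised the DEGs from 410 to 795 at 16 min and from 1950 to 3276 at 30 min, and fits of 2 groups gave 8 DEGs at 16 min and 0 for 30 against 28 min.

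The replicate numbers gave no sign of pairing the kidneys. Correlations of deviations between same-numbered kidneys had a median of -0.009 over 108 pairs, and 25 were over 0.1. Between kidneys of different number the median was -0.01 over 216 pairs, and 53 were over 0.1. A replicate block left the number of DEGs among the 10 genes at 0 at 16, 18, 20, 22 and 26 min, 1 at 24 and 28 min and 2 at 30 min, at 0 for 28 against 26, 30 against 28 and 26 against 16 min, and at 1 for 30 against 26 min. Under the block 5 genes differed over the 9 times and 0 over 16 to 26 min, and Il1b did not pass at 28 min (adjusted p = 0.0533). Depth is unknown, so precision was judged from 3 kidneys a group.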
